A study of Homo sapiens with 12 samples.

Results

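The genes described here are 10 known outputs of the ERK pathway: the phosphatase genes DUSP4, DUSP5 and DUSP6, the Sprouty genes SPRY1, SPRY2 and SPRY4, the SPRED genes SPRED1 and SPRED2, and the transcription factor genes ETV4 and ETV5. They were picked by symbol and role in the pathway, with earlier results of these data known, and every probe set whose platform annotation names a member alone was taken. That gave 24 probe sets of the 54613 tested, and 10 genes of 19775. RNA from 2 cell lines that the labels call multiple myeloma, MMS1 and RPMI8226, was measured on 12 Affymetrix arrays, 3 for each of 4 groups. Each line was measured with a miR-16 sponge and with a control sponge. RPMI8226 is written RPMI in the titles and RPMI826 in other labels, and the miR-16 sponge arrays are called miR16 KO, miR16 knock down and miR16 siRNA in different fields.

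Cells of all 4 groups carried a lentivirus with GFP, the controls with a mock sponge in place of miR-16 binding sites. They had been sorted on a flow cytometer and grown up before the flasks were set up. Binding sites in a sponge transcript occupy a microRNA and so hold it away from its usual targets. Each line with each virus is 1 sorted population. Which promoter drives the sponge the labels do not say. The labels speak of parallel flasks lysed together but do not tie an array to a flask, so p-values measure the spread between arrays, which may be technical. The level of mature miR-16 itself was not analysed here.

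Growth factor receptors signal through RAS, RAF and MEK kinases to the kinase ERK, which switches on transcription in the nucleus. Among the genes it switches on are its own brakes: dual-specificity phosphatases (DUSP) that remove phosphate from ERK, and Sprouty (SPRY) and SPRED proteins that hold back signalling between receptor and RAF. ETV4 and ETV5 are ETS-family transcription factors of the PEA3 group whose genes are also switched on by this pathway, and the level of such genes is widely used as a readout of ERK activity.

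The sponge was built against miR-16, and miR-16 sites can offer the same seed match to other miRNAs with its seed. In RefSeq's table (GRCh38.p14), 7 mature miRNAs from 8 loci hold the same bases 2 to 8, among them hsa-miR-424-5p, hsa-miR-497-5p and hsa-miR-6838-5p. The other 4, miR-16 and those of its best known family members, are shown. The chromosome 13 cluster holds MIR16-1 at chr13:50049027-50049048 (minus strand) and MIR15A at chr13:50049167-50049188 (minus strand). The chromosome 3 cluster holds MIR16-2 at chr3:160404754-160404775 (plus strand) and MIR15B at chr3:160404607-160404628 (plus strand), and MIR195 lies at chr17:7017667-7017687 (minus strand). The seed is in capitals:
hsa-miR-16-5p: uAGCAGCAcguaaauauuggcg
hsa-miR-15a-5p: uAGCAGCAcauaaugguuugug
hsa-miR-15b-5p: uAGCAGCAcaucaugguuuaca
hsa-miR-195-5p: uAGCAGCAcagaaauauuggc

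RefSeq's promoter table held windows for 6 of the 10 genes, 10 windows in all. Windows of 3 genes that went different ways in MMS1 are shown, each the 250 bases before an annotated start site, 5′ to 3′ on the gene's strand in GRCh38.p14: SPRY2, which rose, SPRED2, which fell, and DUSP6, whose estimate was close to 0. Capitals mark the ETS core, CGGAAG or AGGAAG on either strand, the letters that ETV4, ETV5 and other ETS factors read.
SPRY2, chr13:80341127-80341376, minus strand: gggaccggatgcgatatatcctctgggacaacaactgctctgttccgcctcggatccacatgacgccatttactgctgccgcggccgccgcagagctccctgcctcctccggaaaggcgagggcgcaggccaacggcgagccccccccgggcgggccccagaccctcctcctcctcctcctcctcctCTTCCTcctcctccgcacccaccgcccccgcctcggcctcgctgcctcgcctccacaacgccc
SPRED2, chr2:65432600-65432849, minus strand: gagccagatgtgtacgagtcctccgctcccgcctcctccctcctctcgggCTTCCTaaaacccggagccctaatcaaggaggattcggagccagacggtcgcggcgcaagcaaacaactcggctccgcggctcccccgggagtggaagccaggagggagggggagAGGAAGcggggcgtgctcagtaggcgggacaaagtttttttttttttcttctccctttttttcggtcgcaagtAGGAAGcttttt
DUSP6, chr12:89352502-89352751, minus strand: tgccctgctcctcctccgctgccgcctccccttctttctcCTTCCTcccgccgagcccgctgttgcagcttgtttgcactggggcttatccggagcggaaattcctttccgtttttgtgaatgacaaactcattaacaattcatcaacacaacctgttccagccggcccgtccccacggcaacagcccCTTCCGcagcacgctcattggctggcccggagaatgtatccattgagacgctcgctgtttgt

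An ETS core was found in 8 of the 10 windows, against 40.8% of all 35116 windows of that length in the table. By gene it was found in 5 of 6, but some genes have several windows and no share by gene was computed. The SPRY2 window has it 63 to 58 bases before the start site. The SPRED2 window has it at 200 to 195, 85 to 80 and 12 to 7, and the DUSP6 window at 210 to 205 and 62 to 57. SPRY4's only window held none. None of the 10 windows held the octamers TGAATGAA or TCAATGAA, read by the ERK-sensitive repressor CIC (2% of all windows), the AP-1 letters TGACTCA (4.2%) or the CREB letters TGACGTCA (1.65%), on either strand. No motif searched is contained in another. These are matches of letters in a short window; they do not separate SPRY2 and SPRED2, which changed in opposite directions.

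The arrays were alike in scale, with medians of 5.80 to 5.90 on the log2 signal scale and a lower bound of 4 in the deposited values. The labelled cell type had weak marker support. The median of 10 plasma cell genes ran from 5.49 to 6.06 over the arrays, near the array medians. Of the 10, 2 or 3 averaged under 5 in each group. TNFRSF17, JCHAIN and CD38 averaged 4.46, 4.20 and 4.91 over the 12 arrays, close to that bound, and the others were brighter in most groups. The median of 7 erythroid genes ran from 7.92 to 9.94, and HBE1 and GATA1 averaged 14.16 and 9.56. Of 7 erythroid genes measured, 5 fell in MMS1 with the miR-16 sponge and 1 (HBE1) fell in RPMI8226. Beside this and the other marker counts, 12.4% of all genes were called in MMS1 (8.08% lower) and 0.217% in RPMI8226. Their summed linear signal was 41025 to 42770 on MMS1 control sponge arrays, 23609 to 25198 on MMS1 miR-16 sponge arrays, 30727 to 31519 on RPMI8226 control sponge arrays and 24805 to 25231 on RPMI8226 miR-16 sponge arrays. Of 4 T cell genes, CD3D alone was called in MMS1, going from 6.77 to 12.41, which took their summed linear signal from 226–248 to 5129–6277 (222–272 and 221–248 in RPMI8226). The 10 plasma cell genes and the 3 monocyte genes measured gave no call in either line, with summed signals of 1154 to 1175, 1159 to 1278, 1252 to 1376 and 1352 to 1537 for the first list and of 193 to 221, 173 to 195, 172 to 225 and 193 to 227 for the second, in the order MMS1 control, MMS1 miR-16, RPMI8226 control and RPMI8226 miR-16 sponge. The erythroid and CD3D changes moved with the MMS1 changes below, and their part in those was not tested. Replicate 1 of the MMS1 miR-16 sponge stood apart in 18S ribosomal signal, at a mean of 7.84 against 9.56 to 11.14 on the other arrays. The MMS1 changes of DUSP4, SPRY2 and SPRED2 are therefore also given without it below. By brightest probe set no other member was called in MMS1 without it (SPRY4 -0.43, limma adjusted p 0.0568, SPRED1 -0.57, 0.104). SPRED1 at probe set 235074_at was then at -0.81 (limma adjusted p 0.00127), and DUSP5 turned from 0.05 to -0.15 (0.635). Of the other genes named below, ELK3 gained an MMS1 call without it (-0.41, 0.0168).

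In MMS1 the 10 genes did not move as a group: 2 rose, 1 fell and 7 did not pass the test (limma, Benjamini-Hochberg adjusted p under 0.05 over all probe sets, here and below). DUSP4 and SPRY2 were about doubled, SPRED2 fell to 0.707 of its control signal, and 6 of the 10 estimates lay above 0 and 4 below. The share called among all genes in this comparison was 12.4%, with 4.34% higher and 8.08% lower. The median change of the 10 was 0.02 on the log2 scale, beside -0.04 over all genes. In 6 of the 10 genes no sponge array overlapped the controls, 3 genes in each direction, and 31.1% of all genes had such a separation. Less RNA per cell and fewer cells with the RNA cannot be told apart in these bulk samples.

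In RPMI8226 none of the 10 genes passed the test, with 3 estimates above 0 and 7 below. By limma the count at an unadjusted p under 0.05 was also 0 of 10, and 1 of 24 probe sets. Few genes of any kind were called in this line (0.217% of all genes), so a count of 0 of 10 is near the background. The median change of the 10 was -0.10, beside -0.02 over all genes. Only SPRED2 had its arrays separated, where 24.9% of all genes did.

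**Figure D1:**
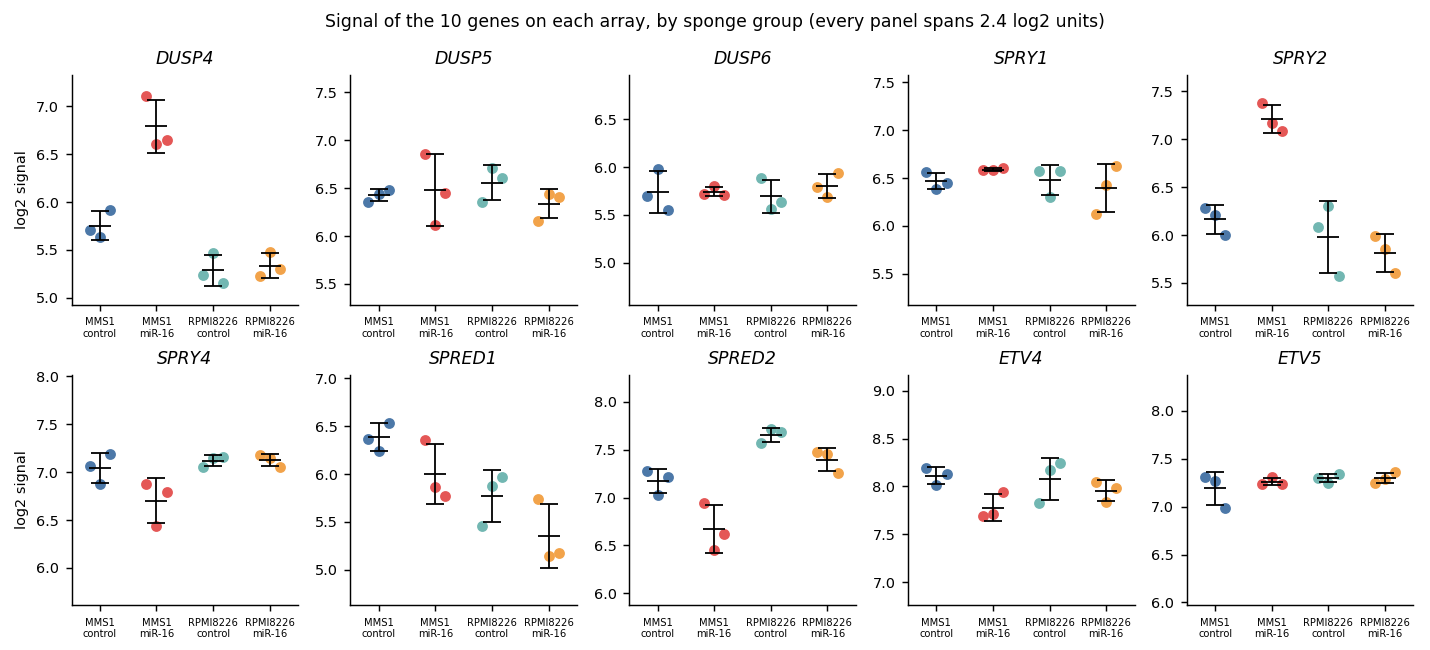
Log2 signal of each of the 10 genes (brightest probe set) on the 12 arrays, in 4 groups of 3, with points for arrays and bars for the group mean and SD. DUSP4 and SPRY2 stand higher on all 3 MMS1 miR-16 sponge arrays than on the other 9, and ETV5 keeps nearly the same level in all groups.

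Among the phosphatases, DUSP4, a nuclear enzyme that acts on ERK and on stress-activated kinases, was the one that changed. Its log2 signals (probe set 204015_s_at) were 5.71, 5.63 and 5.92 on the MMS1 control sponge arrays and 7.11, 6.61 and 6.65 on the MMS1 miR-16 sponge arrays. In RPMI8226 they were 5.24, 5.47 and 5.15 with the control sponge and 5.23, 5.48 and 5.30 with the miR-16 sponge. The 3 MMS1 sponge arrays are thus above every other array, and the RPMI8226 groups overlap. In MMS1 the log2 change was 1.04 (SE 0.147, 95% interval 0.72 to 1.36, adjusted p 0.000494), which is 2.06-fold, and in RPMI8226 it was 0.05 (-0.27 to 0.37, adjusted p 0.921). The changes in the lines differed by -0.99 (RPMI8226 minus MMS1, SE 0.208, adjusted p 0.0151). Without MMS1 miR-16 sponge replicate 1, the highest of the 3, the MMS1 change was 0.88 (adjusted p 0.00144) and the difference -0.83 (adjusted p 0.0212).

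DUSP4 has a pair of further probe sets, both dimmer. Probe set 204014_at read 4.67, 4.86 and 4.24 on MMS1 control arrays and 4.97, 5.18 and 5.15 on MMS1 sponge arrays, a change of 0.51 that did not pass the test (adjusted p 0.0898), with no overlap. Probe set 226034_at gave -0.12 (adjusted p 0.833), with overlapping arrays. The DUSP4 probe sets therefore disagreed in size, and their mean changed by 0.48 in MMS1 (adjusted p 0.014).

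DUSP5, a nuclear phosphatase with a strong preference for ERK, averaged 6.43 ± 0.06 (SD, n = 3) on MMS1 control arrays and 6.48 ± 0.38 on MMS1 sponge arrays. The wider spread came from 6.86, 6.11 and 6.45 on the 3 sponge arrays, on either side of the controls. In RPMI8226 DUSP5 averaged 6.56 ± 0.18 and 6.34 ± 0.15. Its change was 0.05 in MMS1 (95% interval -0.31 to 0.41, adjusted p 0.912) and -0.22 in RPMI8226 (-0.58 to 0.14, adjusted p 0.608).

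DUSP6, the cytoplasmic ERK phosphatase most often used as a readout of the pathway, had the smallest change of the 10 in MMS1. Its control arrays read 5.70, 5.98 and 5.55 and its sponge arrays 5.72, 5.80 and 5.71. The change was 0.00 (95% interval -0.28 to 0.28, adjusted p 0.997), and in RPMI8226 it was 0.11 (-0.17 to 0.39, adjusted p 0.756). The intervals leave room for changes of up to about 0.28 and 0.39, and neither reaches the change of DUSP4 in MMS1. Its 2 further probe sets gave 0.14 and 0.07 in MMS1, neither past the test.

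SPRY2, an inhibitor of signalling from receptors to RAS and RAF, changed much as DUSP4 did. Its only probe set (204011_at) read 6.28, 6.21 and 6.00 on MMS1 control arrays and 7.38, 7.17 and 7.09 on MMS1 sponge arrays. In RPMI8226 it read 6.08, 6.30 and 5.57 with the control sponge and 5.99, 5.85 and 5.60 with the miR-16 sponge. Again the 3 MMS1 sponge arrays are the highest of the 12, while RPMI8226 control arrays spread over the whole range of that line. The MMS1 change was 1.05 (SE 0.174, 95% interval 0.67 to 1.42, adjusted p 0.00163), which is 2.07-fold, and the RPMI8226 change was -0.17 (-0.55 to 0.20, adjusted p 0.716). The difference between lines was -1.22 (SE 0.246, adjusted p 0.0119). Without MMS1 miR-16 sponge replicate 1 the MMS1 change was 0.96 (adjusted p 0.00894) and the difference -1.14 (adjusted p 0.0316).

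The other Sprouty genes did not change in the way SPRY2 did. SPRY1 read 6.56, 6.39 and 6.45 on MMS1 control arrays and 6.58, 6.58 and 6.60 on sponge arrays, a change of 0.12 (95% interval -0.16 to 0.40, adjusted p 0.66) whose interval lies below that of SPRY2. SPRY4 read 7.06, 6.88 and 7.19 on MMS1 control arrays and 6.88, 6.44 and 6.79 on sponge arrays. Its sponge arrays were level with or under the lowest control, and the change of -0.34 (95% interval -0.61 to -0.07) did not pass the test (adjusted p 0.117), though it did where only the brighter probe sets were tested (adjusted p 0.0444). In RPMI8226 SPRY1 changed by -0.08 (adjusted p 0.835) and SPRY4 by 0.01 (adjusted p 0.99).

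**Figure D2:**
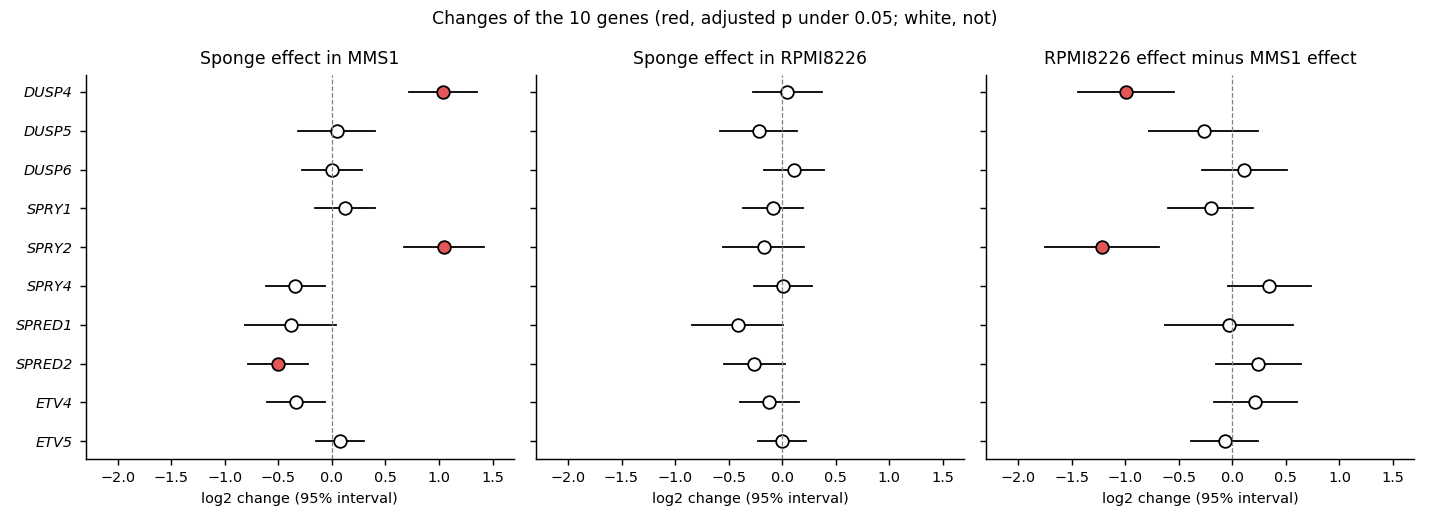
Log2 change with the miR-16 sponge for each of the 10 genes in MMS1, in RPMI8226 and as the difference between them, with 95% intervals from limma; red points passed the test. In MMS1 DUSP4 (1.04) and SPRY2 (1.05) stand apart on the high side. SPRED2 (-0.50) is the only call on the low side, and its interval takes in the uncalled SPRED1 (-0.38), SPRY4 (-0.34) and ETV4 (-0.33). All 10 intervals for RPMI8226 include 0.

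SPRED proteins bring the RAS brake neurofibromin to the membrane. SPRED2 (212458_at) read 7.28, 7.03 and 7.21 on MMS1 control arrays and 6.94, 6.45 and 6.62 on MMS1 sponge arrays. In RPMI8226 it read 7.57, 7.71 and 7.68 with the control sponge and 7.48, 7.45 and 7.26 with the miR-16 sponge. In each line all 3 sponge arrays were under all 3 controls. The MMS1 change was -0.50 (SE 0.130, 95% interval -0.78 to -0.22, adjusted p 0.0263), and the RPMI8226 change of -0.26 (-0.54 to 0.02, adjusted p 0.411) did not pass the test. The difference between lines was 0.24 (-0.16 to 0.64, adjusted p 0.542), so a change in 1 line alone is not shown. Without MMS1 miR-16 sponge replicate 1 the MMS1 change was -0.64 (adjusted p 0.00499). The MMS1 call was lost without control replicate 1 or 3 or sponge replicate 2 or 3 (adjusted p 0.0762 to 0.106), with only the MMS1 groups in the fit (0.083), and over the mean of the gene's 3 probe sets (-0.23, adjusted p 0.145). That mean includes 212466_at, which changed by -0.18 in MMS1 (adjusted p 0.78). It also includes 214026_s_at, whose group means of 4.18 to 4.21 lie near the lower bound of 4 and can show little fall.

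SPRED1 gave different answers by probe set. Its brightest (226837_at) read 6.37, 6.24 and 6.53 on MMS1 control arrays and 6.36, 5.86 and 5.77 on sponge arrays, overlapping, with a change of -0.38 (adjusted p 0.278). Probe set 235074_at read 5.57, 5.68 and 5.90 on the controls and 5.23, 4.88 and 4.93 on the sponge arrays, and fell by 0.70 (SE 0.123, adjusted p 0.00238). In RPMI8226 that probe set was at 5.12, 4.97 and 5.18 with the control sponge and 5.09, 5.10 and 5.23 with the miR-16 sponge, a change of 0.05 (adjusted p 0.901). Its changes in the lines differed by 0.76 (adjusted p 0.0247), while for 226837_at, at -0.38 and -0.42, the difference was -0.03 (adjusted p 0.97). The difference for 235074_at was not called without MMS1 control replicate 2 or 3, MMS1 sponge replicate 2 or 3, RPMI8226 control replicate 2 or RPMI8226 sponge replicate 2 or 3 (adjusted p 0.0505 to 0.0687). The mean of the 3 SPRED1 probe sets fell in MMS1 by 0.40 (adjusted p 0.0433).

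**Figure D3:**
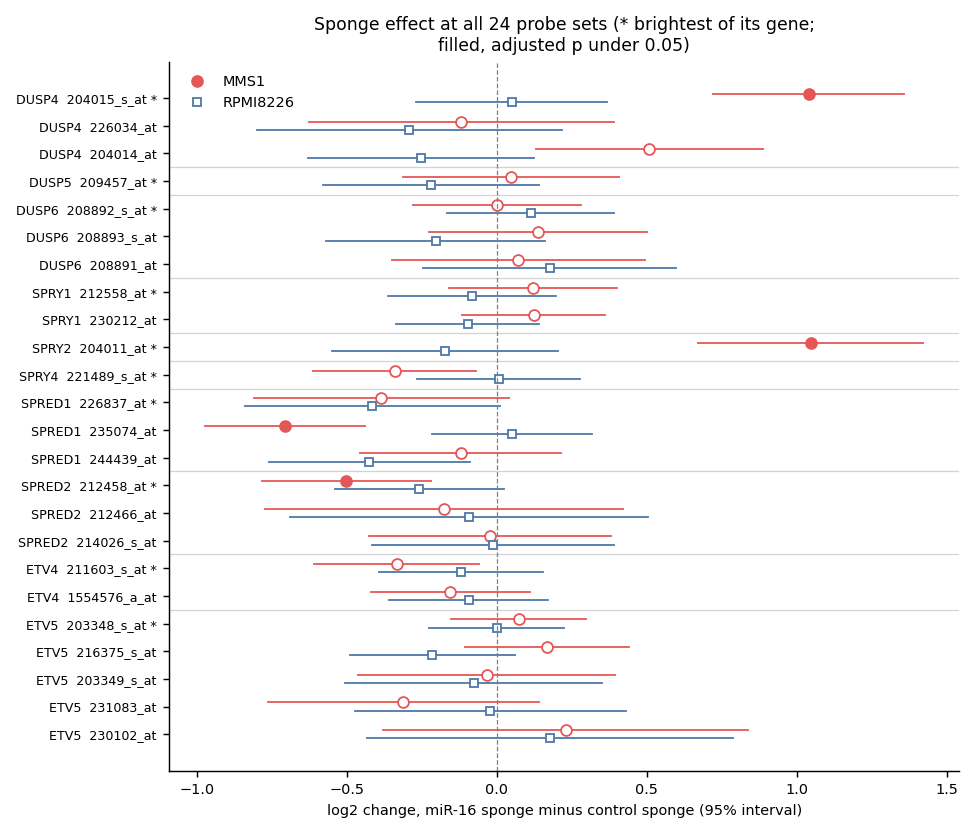
Log2 change with the miR-16 sponge at all 24 probe sets of the 10 genes, grouped by gene, in MMS1 (circles) and in RPMI8226 (squares), with 95% intervals. The probe sets of DUSP4 spread from -0.12 to 1.04 in MMS1 and those of SPRED1 from -0.70 to -0.12, and none of the 24 passed the test in RPMI8226.

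ETV4 had the highest signal of the 10 brightest probe sets, although signals of different probe sets are not on a common scale of abundance. ETV5 had the smallest range of group means among them (0.110), with DUSP6 close to it (0.113). ETV4 read 8.19, 8.02 and 8.13 on MMS1 control arrays and 7.69, 7.71 and 7.94 on sponge arrays. The groups did not overlap, and the change of -0.33 (95% interval -0.61 to -0.06) did not pass the test (adjusted p 0.128); with an intensity trend in the spread model it did (adjusted p 0.0432). In RPMI8226 ETV4 changed by -0.12 (adjusted p 0.732). ETV5 averaged 7.19 ± 0.17, 7.26 ± 0.04, 7.30 ± 0.05 and 7.30 ± 0.06 (SD, n = 3 each) in MMS1 control, MMS1 sponge, RPMI8226 control and RPMI8226 sponge arrays. Its changes were 0.07 (-0.15 to 0.30, adjusted p 0.754) and -0.00 (-0.22 to 0.22, adjusted p 0.999). Its 4 further probe sets and the other of ETV4 did not pass in either line. Between the lines (RPMI8226 minus MMS1), ETV5 at 231083_at stood at -0.53 with the control sponge (adjusted p 0.163, called in 2 of 17 alternatives). At 216375_s_at it stood at -0.34 with the miR-16 sponge (adjusted p 0.0819, called in 4 of 18).

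Over all 24 probe sets, 2 rose and 2 fell in MMS1, where 10.3% of all probe sets were called, and 0 were called in RPMI8226, where 0.196% were. Tested directly, the sponge effect differed between lines for 2 of the 10 genes, DUSP4 and SPRY2, against 5.9% of all genes (2.63% with the higher change in RPMI8226 and 3.27%, as here, with the lower). Averaged over the lines, DUSP4 (0.54, adjusted p 0.00677) and SPRY2 (0.44, adjusted p 0.0493) rose and SPRED2 (-0.38, adjusted p 0.0248) fell, against 8.84% of all genes called, 2.24% higher and 6.6% lower. These averages sit between lines that differ for DUSP4 and SPRY2. The SPRY2 average was called without RPMI8226 control replicate 2 or RPMI8226 sponge replicate 3 but not without any other single array (adjusted p 0.0655 to 0.12). The SPRED2 average was lost without MMS1 control replicate 1 or 3, MMS1 sponge replicate 2 or 3, RPMI8226 control replicate 2 or 3 or RPMI8226 sponge replicate 3 (0.0569 to 0.0681). Over the means of their 3 probe sets the averages of SPRED2 and DUSP4 were -0.18 (adjusted p 0.132) and 0.16 (adjusted p 0.276), neither past the test.

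With the control sponge, 1 of the 10 genes was called between the lines, a count near the share over all genes. By brightest probe set SPRED2 alone was called, higher in RPMI8226 by 0.48 (95% interval 0.20 to 0.76, adjusted p 0.0379), against 10.3% of all genes called, 6.52% higher and 3.8% lower. That call was lost without any 1 of the 3 MMS1 control, any 1 of the 3 RPMI8226 control arrays or RPMI8226 sponge replicate 2 (adjusted p 0.0518 to 0.151), and over the mean of its probe sets (0.188). SPRED1, as RPMI8226 minus MMS1, was at -0.61 at 226837_at (adjusted p 0.0805) and at -0.63 at 235074_at (adjusted p 0.00625), the second of which passed the test. DUSP4 was at -0.46 (95% interval -0.78 to -0.15, adjusted p 0.0762), with all 3 RPMI8226 arrays under all 3 MMS1 arrays. It passed with quantile normalization (adjusted p 0.0358), with arrays centred on their medians (0.0455), and when replicate 1 of the MMS1 miR-16 sponge was left out (0.028). SPRED1 passed in 6 of 19 alternatives, with 226837_at under both scalings (0.0479 and 0.0493), brighter probe sets alone (0.0281), these groups alone (0.0492) and an intensity trend (0.0281), and over the mean of its probe sets (-0.45, adjusted p 0.0289). In 3 of the 10 genes the lines' control arrays did not overlap, beside 32.5% of all genes.

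With the miR-16 sponge, 5 of the 10 genes differed between lines, against 20.6% of all genes, 12.2% higher in RPMI8226 and 8.38% lower. DUSP4 was lower in RPMI8226 by a log2 difference of -1.45 (adjusted p 2.71e-05), SPRY2 by -1.40 (adjusted p 0.000135) and SPRED1 by -0.64 (adjusted p 0.0385). SPRED2 was higher there by 0.72 (adjusted p 0.00192) and SPRY4 by 0.42 (adjusted p 0.0335). The first pair and SPRED2 kept their calls without any single array. For SPRED1 that is 226837_at; 235074_at was at 0.13 (adjusted p 0.54) and did not pass. The SPRED1 call was lost without MMS1 control replicate 1, MMS1 sponge replicate 1 or 2, or RPMI8226 sponge replicate 2 or 3 (adjusted p 0.0524 to 0.146), over the mean of its probe sets (0.088) and with these groups alone (0.077). That of SPRY4 was lost without MMS1 sponge replicate 2 or any 1 of the RPMI8226 sponge arrays (0.0525 to 0.128), with arrays centred on their medians (0.06) and with these groups alone (0.0912). The 5 genes with no overlap between these groups were the same 5, beside 37.2% of all genes. These line comparisons share arrays with the sponge comparisons above and are not separate evidence.

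By level, DUSP4 thus ran from 6.79 ± 0.28 in MMS1 with the miR-16 sponge to 5.75 ± 0.15 in MMS1 controls, 5.34 ± 0.13 in RPMI8226 with the miR-16 sponge and 5.29 ± 0.16 in RPMI8226 controls (SD, n = 3 each). The last pair did not differ beyond their spread. SPRY2 followed the same top order, 7.21 ± 0.15 and 6.16 ± 0.15, and then 5.98 ± 0.38 in RPMI8226 controls and 5.81 ± 0.20 in RPMI8226 with the miR-16 sponge, where no neighbour below the first passed the test. SPRED2 ran the other way between lines, 7.65 ± 0.07 and 7.40 ± 0.12 in RPMI8226 control and sponge arrays and 7.17 ± 0.13 and 6.67 ± 0.25 in MMS1.

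DUSP4 had the widest range of group means of the 10 (1.50), and the genes with the most similar values on the 12 arrays were found by the root mean square difference of log2 signals, each centred on its own mean. The closest were RNASET2, a lysosomal ribonuclease (0.189), SAT1, the enzyme that acetylates spermidine and spermine (0.191), DUSP1, another MAP kinase phosphatase (0.202), KLHL7, an adaptor of a ubiquitin ligase (0.207), and TECR, an enzyme of very long chain fatty acid synthesis (0.218). SPRY2 came next, at rank 6 of all genes (0.227). The remaining 8 of the 10 genes lay between rank 3675 (SPRY1) and rank 19189 (SPRED2). The measure is over 12 arrays that share 4 groups, so it mostly reads a high level in MMS1 with the miR-16 sponge.

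**Figure D4:**
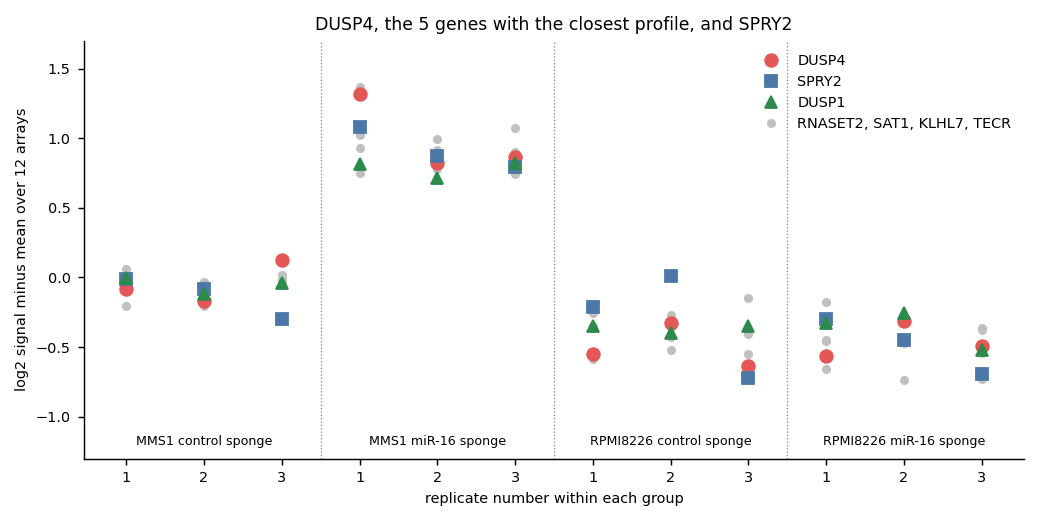
Log2 signal minus each gene's mean over the 12 arrays, for DUSP4, the 5 genes closest to it by root mean square difference, and SPRY2, by group and replicate number. All of these genes are highest on the 3 MMS1 miR-16 sponge arrays.

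The rest of the pathway was read from 6 lists with 70 genes, of which 63 were measured by a probe set of their own and the other 7 are not analysed here. Beside the counts of every list, 12.4% of all genes were called in MMS1, 4.34% higher and 8.08% lower. In RPMI8226 the share was 0.217%. A count near these shares is not a result about the list. Of 12 cascade genes measured, 1 rose and 4 fell in MMS1, with a median change of -0.19. KSR1, a scaffold for RAF and MEK, fell by 0.60 (adjusted p 0.00141), SHC1, an adaptor at activated receptors, by 0.61 (adjusted p 0.00301) and SOS1, an exchange factor that loads RAS, by 0.52 (adjusted p 0.00334). Over the means of their probe sets KSR1 and SOS1 changed by -0.39 and -0.28, still past the test. None of the 12 was called in RPMI8226, where SHC1 stood at -0.58 (adjusted p 0.0586) and MAP2K1, which encodes a MEK, at -0.26 (adjusted p 0.329). SHC1 in RPMI8226 passed in 6 of 19 alternatives: quantile normalization (0.0474), median centring (0.0444), brighter probe sets alone (0.0103), an intensity trend (0.00199), and without MMS1 sponge replicate 1 (adjusted p 0.0235) or 3 (0.0478).

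Of 11 RAS and receptor brakes measured, 1 rose and 1 fell in MMS1 (median -0.01). ERRFI1, an inhibitor of the EGF receptor family, rose by 0.90 (adjusted p 0.000855), and LZTR1, an adaptor for the breakdown of RAS proteins, fell by 0.40 (adjusted p 0.0119), a call lost without MMS1 control replicate 3 (0.0535) or with the MMS1 groups alone (0.0635). NF1, neurofibromin, was at 0.57 (adjusted p 0.076) and passed in 4 of 18 alternatives, with an intensity trend (0.0379) and without MMS1 sponge replicate 2 (0.0493), RPMI8226 control replicate 1 (0.0458) or RPMI8226 control replicate 3 (0.0474). None of the 11 was called in RPMI8226; PEBP1, the RAF kinase inhibitor protein, had the smallest p, at -0.14 (adjusted p 0.554).

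Of the 7 other MAP kinase phosphatases, DUSP1 alone was called in MMS1 (median 0.02). DUSP1, an immediate early nuclear phosphatase, went from 7.25 to 8.09, a change of 0.84 (adjusted p 0.000118), beside -0.00 in RPMI8226. The mean over its probe sets changed by 0.31 in MMS1 (adjusted p 0.0224). DUSP7 and DUSP9, both ERK phosphatases, were at -0.23 (adjusted p 0.212) and 0.18 (adjusted p 0.362) in MMS1. None of the 7 was called in RPMI8226, where DUSP8 was at 0.12 (adjusted p 0.802).

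Of 10 ETS, CIC and SRF factors, 1 fell in MMS1 (median -0.21). ETS1 fell by 1.35 at its brightest probe set (adjusted p 4.86e-06), but the mean over its probe sets changed by -0.14 (adjusted p 0.465). GABPA was at 0.36 (adjusted p 0.058) and ETS2 at 0.34 (adjusted p 0.0684). GABPA passed in 5 of 19 alternatives, with quantile normalization (0.0188), median centring (0.0378), brighter probe sets alone (0.0173), an intensity trend (0.0299) and without MMS1 control replicate 3 (0.0476). ETS2 passed in 3 of 19, with quantile normalization (0.0451), brighter probe sets (0.0214) and the trend (0.0453). None of the 10 was called in RPMI8226, with ELK3 at -0.19 (adjusted p 0.487).

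Of 10 other ERK output genes, 1 rose and 2 fell in MMS1 (median -0.22). EGR1, the immediate early zinc finger factor, fell by 1.58 in MMS1 (adjusted p 3.7e-06) and by 0.91 in RPMI8226 (adjusted p 0.0135), the only call of the 6 lists in that line. The RPMI8226 call was lost without RPMI8226 control replicate 1 (0.065), sponge replicate 1 (0.0735) or sponge replicate 2 (0.0849) and with the RPMI8226 groups alone (0.11). IER3, an early response gene and ERK substrate, rose by 0.96 in MMS1 (adjusted p 3.2e-05). MYC fell there by 0.41 (adjusted p 0.0106; 0.0602 with the MMS1 groups alone) and stood at -0.47 in RPMI8226 (adjusted p 0.0643). There MYC passed in 5 of 19 alternatives, with median centring (0.0472), brighter probe sets alone (0.0105), the mean over its probe sets (0.0227), an intensity trend (0.000188) and without MMS1 sponge replicate 1 (0.0291). DUSP4, SPRY2, IER3 and DUSP1 were thus higher in MMS1 while EGR1 was lower.

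Of 13 receptors upstream of ERK, 1 rose and 3 fell in MMS1 (median -0.08). IGF1R, the receptor for insulin-like growth factors, had the largest change of the 63 genes in MMS1, going from 8.08 to 5.85; it fell by 2.23 (adjusted p 7.42e-08). ERBB2 fell by 0.63 (adjusted p 0.0212) and KIT, the stem cell factor receptor, rose by 0.64 (adjusted p 0.0282). The ERBB2 call was lost without MMS1 control replicate 1 or 2 or MMS1 sponge replicate 3 (0.0813 to 0.0854) and over the mean of its probe sets (0.0853), and the KIT call without MMS1 control replicate 2 or 3 or MMS1 sponge replicate 2 or 3 (0.0629 to 0.124) and with the MMS1 groups alone (0.0519). None of the 13 was called in RPMI8226; EGFR, at -0.98 (adjusted p 0.34), had overlapping arrays.

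**Figure D5:**
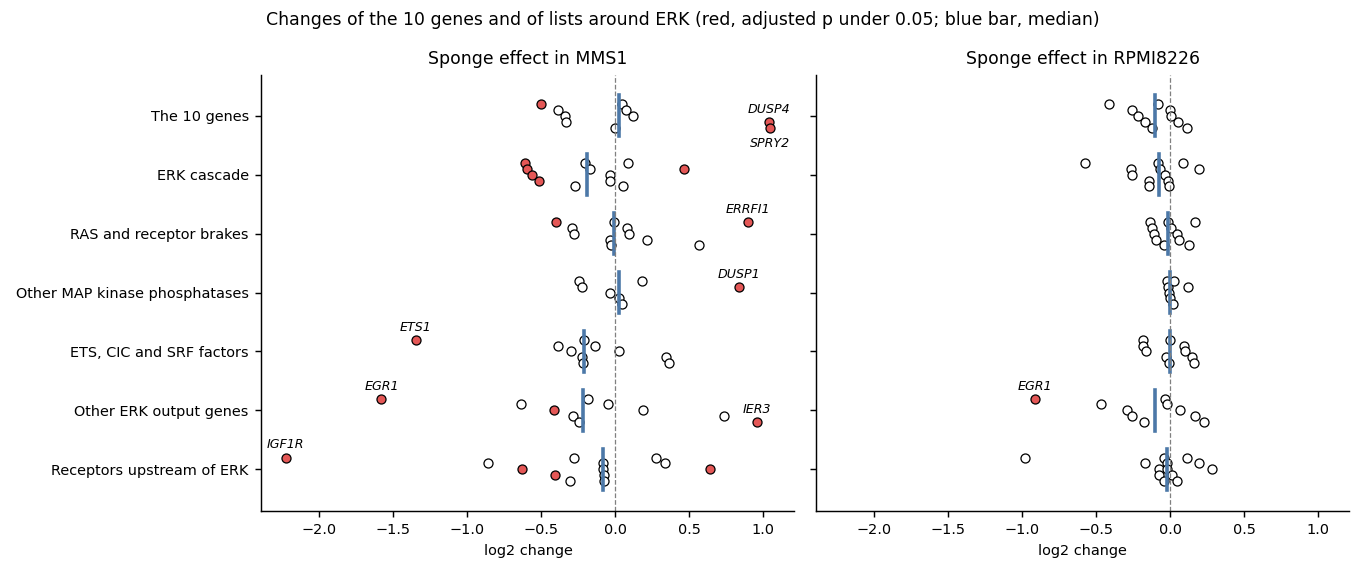
Log2 change with the miR-16 sponge of the 10 genes and of the 63 measured genes of 6 lists around ERK, in MMS1 and in RPMI8226, each point 1 gene; red points passed the test and the blue bar is the list's median. Calls go in both directions within 4 of the 6 lists in MMS1, and EGR1 is the only call in RPMI8226.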

How the data were processed

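Gene expression was measured on 12 Affymetrix arrays, 3 per group. The authors deposited log2 signals, 1 per probe set and array, with a lower bound of 4; how probes were summarized and arrays scaled the sources used here do not give. Per the labels' protocols, total RNA went through repeated linear amplification before biotin labelling. After 62 control probe sets were left out, 54613 were fitted as deposited with limma 3.58.1 in R 4.3.3, with 4 group means and 8 residual degrees of freedom (median SE of a change 0.14). The number of arrays limits precision. The script was tested on simulated data in which few probe sets changed. There a log2 change of 1 was called for 60 of 67 probe sets in MMS1 and 57 of 67 in RPMI8226. A change of 0.5 was called for only 2 of 69 and 6 of 69. These shares cannot be taken as those of the measured MMS1 arrays. The test there gave 5635 calls, and SPRED2 at -0.50 and MYC at -0.41 passed. A change of about 0.5 or less that did not pass the test is still not shown to be absent. A gene is represented by its brightest probe set, by mean over all arrays, among those that name no other gene. The rule for named genes took all 10 members, up to 3 genes of each list by p in MMS1 and up to 2 in RPMI8226, and the 5 genes closest to DUSP4. Members and lists were chosen with earlier results of these data known. Alternatives were other array scalings, a filter on dim probe sets, means over probe sets, a replicate block, fits on the compared groups alone, another spread model and each array left out. Arrays of a group correlated at 0.974 to 0.986, so none was a duplicate. Symbols and sequences come from RefSeq (GRCh38.p14).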

Additional observations from a re-analysis of the deposited data

Results flagged for a closer look

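For 3 probe sets the effect of the miR-16 sponge differed between the lines by a test of the difference itself (limma's interaction contrast, RPMI8226 minus MMS1). The difference in log2 change was -0.99 for DUSP4 at 204015_s_at and -1.22 for SPRY2 at 204011_at. It was 0.76 for SPRED1 at 235074_at, a call that 7 of the 12 arrays, left out 1 at a time, ended.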

How the results depend on the processing

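Of 3668 alternative values for single genes, 3529 kept their side of the threshold, 83 lost a call, 56 gained a call and 0 of the called values reversed. Of the 3529, 189 that were uncalled in both fits turned sign. The rises of DUSP4 and SPRY2 in MMS1 and their differences between lines passed in every alternative run; with probe sets brighter than the median alone, DUSP4 and DUSP6 were too dim to be tested. There 1 of the 10 genes differed in sponge effect between lines. Called members in the line difference of control arrays, 1 as reported, were 3 with quantile normalization, 3 with median centring and 2 each with brighter probe sets, the compared groups alone or an intensity trend. In the miR-16 sponge arrays they went from 5 to 3 with the compared groups alone. Over all probe sets, calls in RPMI8226 went from 107 to 164 with median centring, 1268 among brighter ones, 8 with own groups and 1766 with the trend. In MMS1 they went from 5635 to 3735 and for the miR-16 sponge line difference from 9692 to 6374 with own groups, and for the difference of sponge effects from 2786 to 4267 (brighter) and 4649 (trend). Array scaling moved the share of calls that were higher from 29.4% to 41.3% (average, quantile), from 66.6% to 55.5% and 55.8% (control line difference, quantile and median) and from 56.5% to 42.5% (sponge line difference, median).

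With 1 array left out, called members ranged over 2 to 3 in MMS1, 0 to 0 in RPMI8226, 1 to 3 for the average, 2 to 2 for the difference, 0 to 2 for the control line difference and 3 to 5 for the sponge line difference. All probe sets called ranged over 3730 to 5570, 22 to 723, 2574 to 5159, 1845 to 2797, 2747 to 5379 and 6905 to 9539 in that order. For RPMI8226, leaving out replicate 1, 2 or 3 of the MMS1 miR-16 sponge gave 723, 78 or 105, and leaving out 1 of the other 9 arrays gave 22 to 36.

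The labels number replicates 1 to 3 in each group, but same-numbered arrays did not deviate together: residual correlations over 18 pairs ran from -0.07 to 0.06, with 0 over 0.1. With a replicate block, calls in RPMI8226 were 32, and 0 of the 10 genes were called in the control line difference (SPRED2, adjusted p 0.0501). Of 60 changes at the members' brightest probe sets, the block ended 2 calls, the other being SPRED1 in the sponge line difference (0.0516), and gave 0 new ones. The causes of these changes were not tested. Values near the bound of 4 limit what dim probe sets can show.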
